A study of Rattus norvegicus with 18 samples.

Results

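The astrocyte markers described here are 9 genes, Gfap, Vim, Aqp4, Slc1a2, Slc1a3, Glul, Gja1, Aldoc and Fabp7, taken from the 10411 rat genes that the array's probe sets name. They were chosen by name as genes commonly used to mark astrocytes, with earlier results of these data known. Every probe set annotated to one of them was taken, which gave 18 probe sets. A filter on low signals kept 15 of these, with at least 1 for each gene, so all 9 genes entered the tests. Where a gene had several, the probe set with the highest mean represented it.

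RNA came from the spinal cord and from the oculomotor nucleus, a midbrain nucleus whose motor neurons drive most eye muscles, of rats aged 6, 18 and 30 months. Each of the 6 combinations of tissue and age had 3 Affymetrix RA230 arrays, 18 in all, and tissue of 4 animals was pooled for each array. The labels name the strain, F344BN, for only 2 of the oculomotor samples at 6 months, and no treatment or genotype is given for any group. P-values measure the spread between such pools, and not between animals. Both tissues are mixtures of cells, and fewer cells of a type and less RNA per cell cannot be told apart in them.

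Astrocytes are the glial cells that clear glutamate and potassium from around synapses, exchange water with the blood through endfeet on vessels, and pass metabolites among themselves through gap junctions. Gfap and Vim encode their intermediate filaments, and both are known to increase when astrocytes become reactive, as after injury. Slc1a2 (also GLT-1) and Slc1a3 (also GLAST) are their glutamate transporters and Glul, glutamine synthetase, turns the glutamate taken up into glutamine. Aqp4 is the water channel of the endfeet, Gja1 (connexin 43) forms their gap junctions, Aldoc is the brain isoform of the glycolytic enzyme aldolase, and Fabp7 is a fatty acid binding protein of radial glia and astrocytes. Vim is also made by vascular, meningeal and microglial cells, so it is not specific to astrocytes.

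4 of the genes carried the largest differences between the tissues, and their promoters are shown because 3 of them, Gfap, Vim and Fabp7, were lower in the oculomotor nucleus while the fourth, Slc1a3, was higher. Each stretch runs 5′ to 3′ on the strand of the gene, from 120 bases before the annotated start to 30 bases from it, in RefSeq's GRCr8 build. All 9 genes had a promoter in the RefSeq table. Capitals mark matches on either strand. The motifs searched were the TATA-type box, spelled TATAAA or spelled AATAAA, the CCAAT box, the GC box spelled GGGCGG and the AP-1 site spelled TGANTCA, and no match overlaps another.
Gfap, chr10:88361632-88361781, minus strand: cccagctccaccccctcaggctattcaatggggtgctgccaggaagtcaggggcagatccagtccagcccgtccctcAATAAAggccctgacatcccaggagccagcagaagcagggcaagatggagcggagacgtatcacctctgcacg
Vim, chr17:81577141-81577290, plus strand: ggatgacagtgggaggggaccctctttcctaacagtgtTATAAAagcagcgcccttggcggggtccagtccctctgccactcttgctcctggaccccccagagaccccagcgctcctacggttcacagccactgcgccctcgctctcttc
Fabp7, chr20:37669486-37669635, plus strand: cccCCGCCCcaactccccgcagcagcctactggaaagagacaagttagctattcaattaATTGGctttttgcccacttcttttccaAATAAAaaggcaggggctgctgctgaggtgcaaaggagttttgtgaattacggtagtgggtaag
Slc1a3, chr2:59557779-59557928, minus strand: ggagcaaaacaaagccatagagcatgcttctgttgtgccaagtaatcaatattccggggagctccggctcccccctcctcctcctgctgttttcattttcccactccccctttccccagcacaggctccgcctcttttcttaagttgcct
A TATA-type box was found in the windows of Gfap (43 bases before the start), Vim (82 bases before) and Fabp7 (34 bases before), which are 3 of the 9 genes, against 16.4% of 27457 rat promoters of the same length. Fabp7 also held a CCAAT box and a GC box. None of the 4 motifs was in the Slc1a3 window. Among the other members a CCAAT box was found for Aqp4, Glul and Gja1 (22.9% of promoters), a GC box for Slc1a2 and Aldoc (27.6%), and an AP-1 site for Gja1 (3.65%). The motifs were chosen with the sequences in view, and a match describes the letters only.

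Values are the authors' signals, an intensity on a linear scale that is comparable between arrays for 1 probe set but not between probe sets. Tests used log2 signals in 1 limma model of all 18 arrays and 9482 probe sets, and a difference was called at an adjusted p (Benjamini-Hochberg over those probe sets) under 0.05. Member signals on the representing probe sets ran from 182 to 14116. By mean signal these probe sets lay above the 87th percentile of those tested for 8 of the 9 genes, with Slc1a2 at a percentile of 19.3. The percentiles take the brightest probe set of each gene and do not rank genes by expression. Signals of the 9 genes on each array are plotted by tissue and age.

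**Figure D1:**
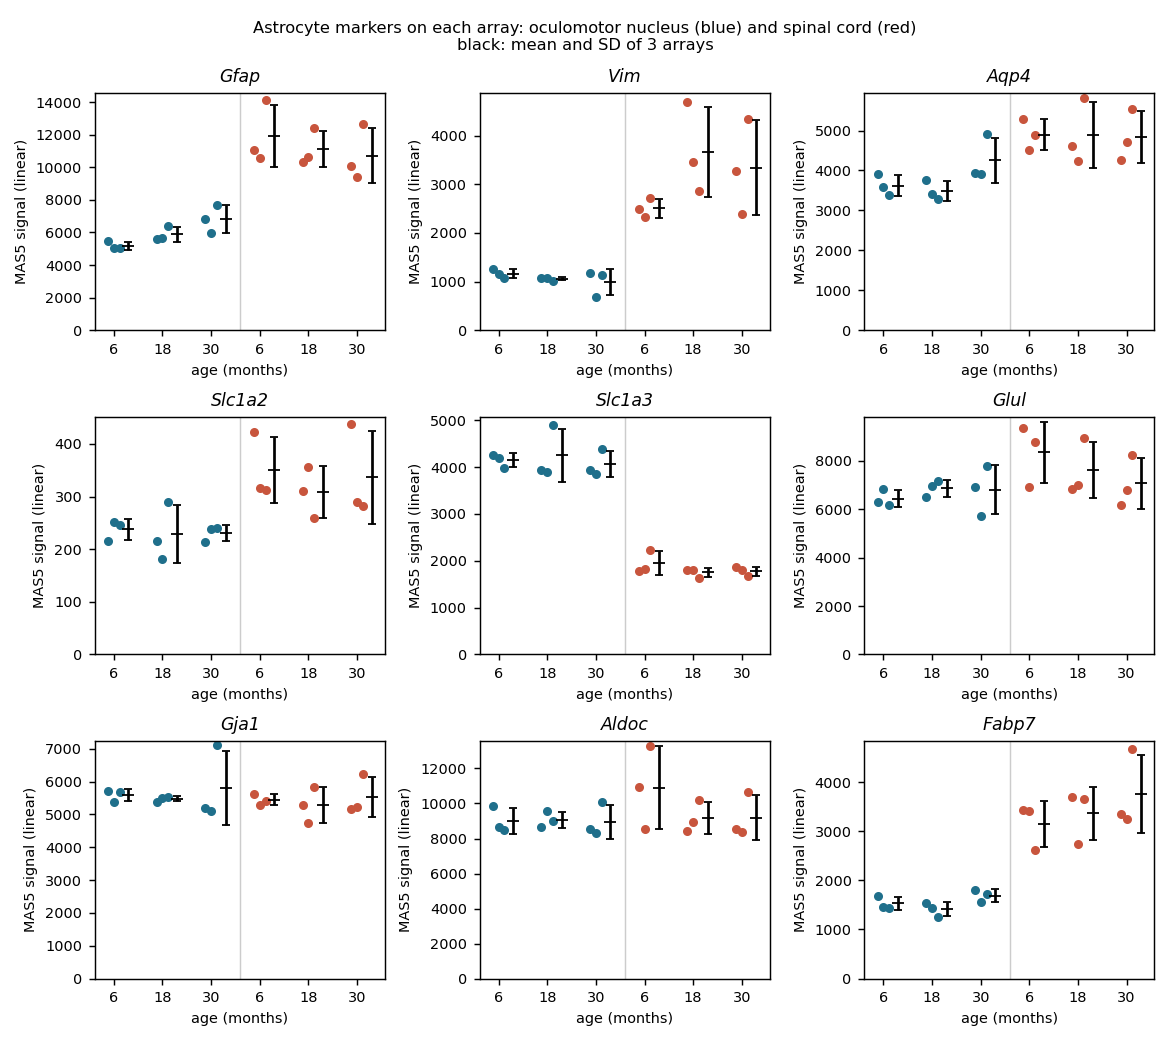
Signal of each astrocyte marker (vertical axis, linear MAS5 signal, from 0) on the 18 arrays, by age in months, for the oculomotor nucleus (blue) and the spinal cord (red); points are arrays, and the black mark and bar are the mean and SD of the 3 arrays of a group. Gfap, Vim and Fabp7 lie lower and Slc1a3 higher on all oculomotor arrays than on any cord array, while Gja1 and Aldoc overlap.

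The first comparison asked how the tissues differ at each age. At 6 months 6 of the 9 genes passed the test on their representing probe sets, where 26.1% of all probe sets passed. Slc1a3 was higher in the oculomotor nucleus, and Gfap, Vim, Fabp7, Aqp4 and Slc1a2 were lower. For Aqp4 this holds for 1372190_at, while its probe set 1387397_at was called higher at each age. At 18 months 5 passed (26.2% of all), Slc1a2 not among them, and at 30 months 4 passed (21% of all), Slc1a3 higher and Gfap, Vim and Fabp7 lower. By direction, the shares of all probe sets were 12.7% higher and 13.4% lower (6 months), 12.3% and 13.9% (18 months), then 9.7% and 11.3% (30 months). The median difference over the 9 genes was -0.44, -0.45 and -0.19 on the log2 scale at 6, 18 and 30 months, while that over all probe sets was 0.01 at each age. Groups did not overlap for 7, 5 and 5 of the 9 genes, against 40.7%, 44.9% and 33.5% of all probe sets. Glul, Gja1 and Aldoc did not pass at any age.

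Gfap, the main filament of mature astrocytes, had oculomotor signals of 5455, 5023 and 5068 (6 months), 5589, 5641 and 6417 (18 months), then 6842, 5952 and 7690 (30 months). Cord signals were 11091, 10553 and 14116 (6 months), 10331, 10642 and 12388 (18 months), then 10092, 9431 and 12645 (30 months). The highest oculomotor array, at 30 months, stayed below the lowest cord array. Gfap was lower in the oculomotor nucleus by 1.19 on the log2 scale at 6 months (a 2.28-fold difference, SE 0.13, adjusted p = 1.89e-06), by 0.92 at 18 months (adjusted p = 3.28e-05) and by 0.65 at 30 months (1.57-fold, adjusted p = 0.0013).

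Vim, vimentin, had oculomotor signals of 1257, 1150 and 1075 (6 months), 1079, 1080 and 1017 (18 months), then 1169, 689 and 1139 (30 months). In the cord they were 2485, 2316 and 2713 (6 months), 4679, 3454 and 2862 (18 months), then 3278, 2389 and 4345 (30 months). Every cord array lay above every oculomotor array, and the cord arrays at 18 and 30 months were spread more widely than those at 6 months. Vim was lower in the oculomotor nucleus by 1.11 at 6 months (SE 0.20, adjusted p = 0.000488), 1.76 at 18 months (3.39-fold, adjusted p = 3.18e-06) and 1.74 at 30 months (adjusted p = 4.65e-06).

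Fabp7 had oculomotor signals of 1683, 1467 and 1439 (6 months), 1530, 1444 and 1260 (18 months), then 1804, 1554 and 1715 (30 months). Cord signals were 3425, 3416 and 2611, then 3698, 2732 and 3658, then 3361, 3248 and 4668. No array of the cord came down to the highest oculomotor value. Fabp7 was lower in the oculomotor nucleus by 1.03 at 6 months (2.05-fold, SE 0.15, adjusted p = 3.64e-05), 1.24 at 18 months (adjusted p = 3.78e-06) and 1.14 at 30 months (adjusted p = 1.54e-05).

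Slc1a3, GLAST, went the other way. Its oculomotor signals were 4268, 4188 and 3977 (6 months), 3940, 3900 and 4911 (18 months), then 3950, 3861 and 4378 (30 months). The cord had 1791, 1829 and 2238, then 1804, 1808 and 1641, then 1857, 1813 and 1671. Slc1a3 was higher in the oculomotor nucleus by 1.09 at 6 months (2.13-fold, SE 0.10, adjusted p = 3.59e-07), 1.27 at 18 months (2.42-fold, adjusted p = 4.97e-08) and 1.19 at 30 months (adjusted p = 1.3e-07). A second probe set, 1388064_a_at, gave 1.29, 1.49 and 1.12, all called. The third, 1371130_at, lay under the filter, with signals from 104 to 182 in both tissues, and was not tested. Gfap, Vim, Fabp7 and Slc1a3 were called at all 3 ages under each of 31 alternative fits. A size rule after the authors', which is not among these fits, asked for group means over 1.7-fold apart. Gfap at 30 months (means of 6828 and 10723) did not reach it.

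Slc1a2, GLT-1, had low signals on this array, from 182 to 290 in the oculomotor nucleus and from 259 to 438 in the cord. At 6 months the oculomotor arrays had 215, 252 and 246 and the cord arrays 422, 317 and 312, so they did not overlap. The difference was -0.55 (SE 0.19, adjusted p = 0.0425), -0.45 at 18 months (adjusted p = 0.099) and -0.52 at 30 months (adjusted p = 0.0625). The first was called under 16 of 31 alternative fits. Where more than 1 cord array was left at 6 months, its adjusted p ran from 0.0268 to 0.297 (muscle transcripts as a covariate). It was lost, for example, without replicate 1 of the cord at 6 months (-0.41, adjusted p = 0.168). The other probe set, 1369694_at, fell under the filter, with signals from 80.6 to 309.

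Glul, glutamine synthetase, lay between 5735 and 7784 in the oculomotor nucleus and between 6159 and 9364 in the cord. At 6 months the arrays did not overlap, with 6306, 6858 and 6165 against 9364, 6929 and 8776, and the difference was -0.36 (95% interval -0.66 to -0.07, adjusted p = 0.0608). It passed under 9 of 31 alternative fits. At 18 months the difference was -0.14 (-0.43 to 0.15) and at 30 months -0.05 (-0.35 to 0.24), with overlapping arrays. Both other Glul probe sets were not called at any age.

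Aqp4, the endfoot water channel, gave readings that depended on the probe set. Probe set 1372190_at had oculomotor signals of 3911, 3577 and 3381 at 6 months and cord signals of 5299, 4512 and 4889, with a difference of -0.44 (SE 0.13, adjusted p = 0.0157). It was -0.48 at 18 months (adjusted p = 0.00797) and -0.19 at 30 months (adjusted p = 0.333), when the oculomotor arrays had 3944, 3909 and 4902 and the cord arrays 4251, 4723 and 5532. The 30-month arrays overlapped.

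Probe set 1368981_at of Aqp4 was also lower in the oculomotor nucleus, by 0.62, 0.47 and 0.68 (adjusted p = 0.00986, 0.042 and 0.00623). The 18-month call of 1368981_at held under 19 of 30 alternative fits. It was lost, among others, without either oculomotor replicate 2 or 3 of that age (the latter -0.32, adjusted p = 0.215), without any 1 cord array of that age, without oculomotor replicate 1 of 6 months and without cord replicate 2 of 30 months. Its 6-month call was lost without oculomotor replicate 2 of 6 months (adjusted p = 0.0588). The 3 muscle-rich cord arrays (those with most skeletal muscle transcripts) were replicates 1 and 2 of 6 months and replicate 2 of 18 months. Their omission gave -0.69 at 6 months, where only cord replicate 3 was left, so no call is read from it.

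Probe set 1387397_at of Aqp4 was higher in the oculomotor nucleus, by 0.59, 0.72 and 0.72 (adjusted p = 0.00807, 0.00184 and 0.00239). At 6 months its oculomotor signals were 720, 636 and 786, against 360, 540 and 539 for the cord. With the mean over the probe sets of Aqp4 in place of 1372190_at, the difference was -0.15 at 6 months (adjusted p = 0.239) and -0.08 at 18 months (adjusted p = 0.574), so no direction is given for the gene. The 6-month call of 1372190_at was also lost without oculomotor replicate 3 (-0.39, adjusted p = 0.069) or cord replicate 1 (-0.38, adjusted p = 0.0604), and the 18-month call without cord replicate 3 (-0.35, adjusted p = 0.0557). With muscle transcripts as a covariate the 6-month calls of 1372190_at and 1387397_at were lost (adjusted p = 0.0595 and 0.0732). That of 1387397_at was also lost without cord replicate 1 of 6 months (0.0505). On omission of the 3 muscle-rich cord arrays the 6-month differences of the 2 probe sets were -0.44 and 0.40, against cord replicate 3 alone. Where on the transcript each probe set lies was not given in the sources used here.

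On its brightest probe set, 1372002_at, Gja1 (connexin 43) had 6-month signals of 5716, 5388 and 5686 for the oculomotor nucleus, against 5624, 5293 and 5413 for the cord. Differences were 0.04, 0.06 and 0.05 at 6, 18 and 30 months, with 95% intervals of -0.20 to 0.28, -0.19 to 0.30 and -0.19 to 0.30. A second probe set, 1369640_at, gave 0.12, 0.75 and 0.02, and at 18 months its arrays did not overlap (1750, 1812 and 1463 against 977, 1406 and 707, adjusted p = 0.0612). The mean over both was called at 18 months (0.40, adjusted p = 0.0205). The third, 1369639_at, lay near the floor of 66.4 on every array and was not tested.

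Aldoc, aldolase C, had signals from 8289 to 10084 in the oculomotor nucleus and from 8344 to 13296 in the cord. Its differences were -0.26 (95% interval -0.55 to 0.04), -0.02 (-0.31 to 0.28) and -0.03 (-0.33 to 0.26) at 6, 18 and 30 months. At 6 months the cord arrays had 10919, 8517 and 13296, and without the second of them the difference was -0.42 and passed (adjusted p = 0.0276). That cord array was also among the 3 richest in skeletal muscle transcripts. The log2 differences of the 9 genes between the tissues are plotted with their 95% intervals.

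**Figure D2:**
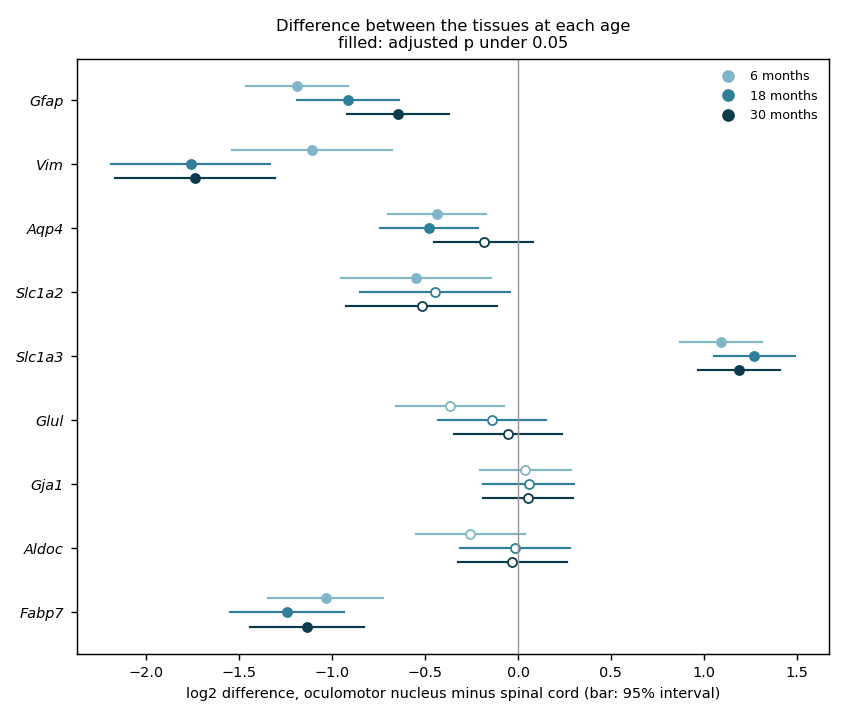
Log2 difference between oculomotor nucleus and spinal cord (horizontal axis, below 0 where the oculomotor nucleus is lower) for the representing probe set of each astrocyte marker at 6, 18 and 30 months; points are estimates of the limma model, bars their 95% intervals, filled points have an adjusted p under 0.05. Gfap runs from -1.19 at 6 months to -0.65 at 30 months, Slc1a3 stays between 1.09 and 1.27, and the intervals of Gja1 and Aldoc include 0 at each age.

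**Figure D3:**
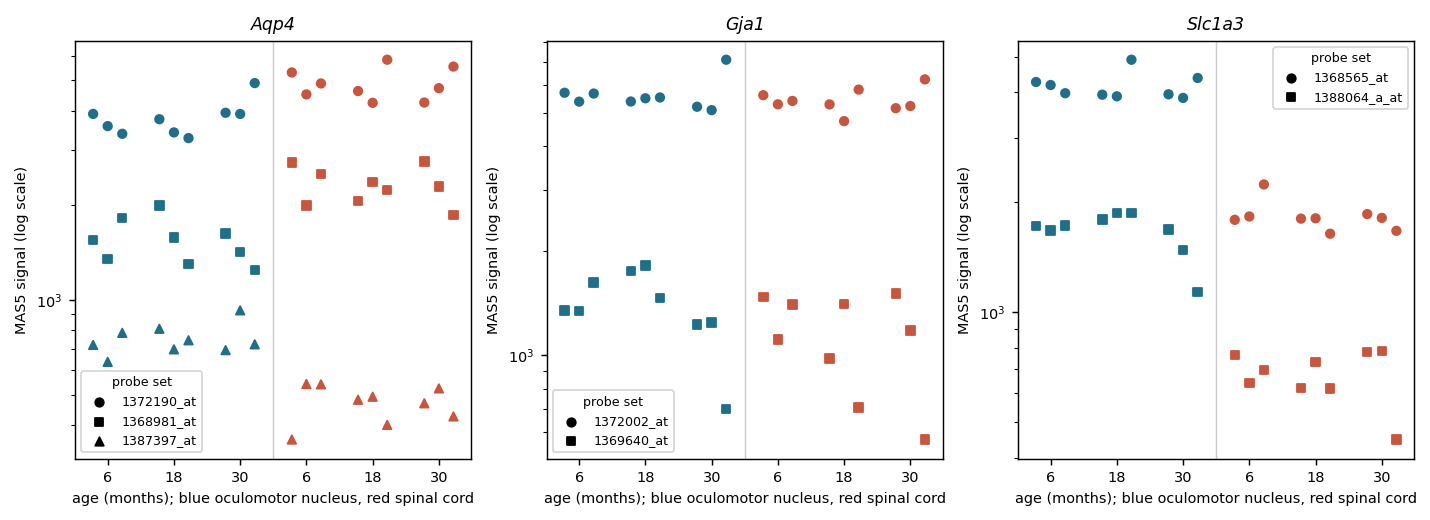
Signal (vertical axis, log scale) of each tested probe set of Aqp4, Gja1 and Slc1a3 on the 18 arrays, by age in months, with the oculomotor nucleus in blue and the spinal cord in red; marker shapes are probe sets. Probe set 1387397_at of Aqp4 is higher in the oculomotor nucleus while the others of that gene are lower, and 1369640_at of Gja1 drops to 698, 707 and 571 on 3 arrays on which 1372002_at is the highest of its group.

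The second comparison asked how the markers differ with age within a tissue, for which the study took 6 months as the baseline. None of the 9 genes was called by limma in any of the 6 comparisons of ages. In the oculomotor nucleus 0% of probe sets passed between 18 and 6 months, 0.211% between 30 and 6 months and 0.0105% between 30 and 18 months. In the cord the shares were 0.728%, 0.221% and 0.0105%. The 69 probe sets behind the first of these became 34 without cord replicate 2 of 6 months, and 19 and 15 without cord replicates 1 and 2 of 18 months. No count is given for omission of the 3 muscle-rich cord arrays, which left only cord replicate 3 at 6 months. An unadjusted p under 0.05 was found for 3.39%, 8.12% and 4.71% of all probe sets in the oculomotor nucleus, and for 10.3%, 10.7% and 2.14% in the cord. Of the members, Gfap between 30 and 6 months in the oculomotor nucleus, Vim between 18 and 6 months in the cord and Aqp4 between 30 and 18 months in the oculomotor nucleus had one. Groups did not overlap for 1, 1 and 2 of the 9 genes in the oculomotor nucleus, against 14.5%, 13.9% and 8.81% of all probe sets, and for 1, 0 and 0 in the cord, against 13.6%, 13.1% and 6.46%.

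Gfap in the oculomotor nucleus had means of 5182 ± 238, 5882 ± 464 and 6828 ± 869 (SD, n = 3) at 6, 18 and 30 months. All 3 arrays at 18 months and all 3 at 30 months lay above the highest at 6 months, 5455, and the 18- and 30-month arrays overlapped. On the same arrays the hexokinase control, whose 3′ to 5′ signal ratio reads RNA quality, had ratios of 1.57 to 1.64 (6 months), 1.75 to 1.89 (18 months) and 1.76 to 1.91 (30 months), so both later ages lay above 6 months without overlap here too. The ratios of the other controls, GAPDH (0.991 to 1.09) and beta-actin (1.22 to 1.54), overlapped between these ages, and the part of RNA quality in the Gfap values was not tested. At 30 months the difference from 6 months was 0.39 on the log2 scale (95% interval 0.12 to 0.67, adjusted p = 0.399 by limma), and at 18 months it was 0.18 (-0.09 to 0.46). With quantile normalization Gfap passed (0.42, adjusted p = 0.0308), and over all alternatives its adjusted p ran from 0.0308 to 0.898.

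In the cord the same gene had means of 11919.9 ± 1921, 11120.4 ± 1109 and 10723 ± 1697, with overlapping arrays. The cord differences from 6 months were -0.09 at 18 months (-0.37 to 0.18) and -0.15 at 30 months (-0.43 to 0.12). The change from 6 to 30 months was larger in the oculomotor nucleus by 0.54 (SE 0.19, 95% interval 0.16 to 0.93). This difference between the tissues did not pass (adjusted p = 0.789 by limma), and none of the 9482 probe sets passed. An unadjusted p under 0.05 was found for 5.47% of them. Groups did not overlap for 1, 1 and 2 of the 9 genes in the oculomotor nucleus, against 14.5%, 13.9% and 8.81% of all probe sets, and for 1, 0 and 0 in the cord, against 13.6%, 13.1% and 6.46%.

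Vim in the cord had means of 2505 ± 199, 3665 ± 926 and 3337 ± 979 (SD, n = 3) at 6, 18 and 30 months. The 3 arrays at 18 months lay above the 3 at 6 months, with a difference of 0.52 (95% interval 0.09 to 0.95, adjusted p = 0.356 by limma), and the 30-month arrays overlapped those at 6 months (0.37, adjusted p = 0.546). In the oculomotor nucleus Vim had means of 1161 ± 91.0, 1059 ± 35.8 and 999 ± 269, the last with 1 array at 689 beside 1139 and 1169. There the differences from 6 months were -0.13 and -0.25. The tissues differed in the change of Vim by -0.65 up to 18 months (adjusted p = 0.947) and by -0.63 up to 30 months (adjusted p = 0.907 by limma), neither called, and 5.07% of all probe sets had an unadjusted p under 0.05 in the former.

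Oculomotor Aqp4 (1372190_at) signals of 3762, 3415 and 3276 (18 months) lay below those of 3944, 3909 and 4902 (30 months), which did not overlap (0.28, 95% interval 0.02 to 0.55, adjusted p = 0.976 by limma). Its probe sets 1368981_at and 1387397_at overlapped between these ages. Fabp7 likewise had higher arrays at 30 than at 18 months there (0.26, adjusted p = 0.976). For Slc1a2, Slc1a3, Glul, Gja1 and Aldoc all comparisons of ages overlapped on the representing probe set, with differences from 6 months between -0.24 and 0.09. The intervals show how large a change the arrays could have missed: for Slc1a3 at 30 months they ran from -0.25 to 0.19 in the oculomotor nucleus and from -0.35 to 0.09 in the cord.

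**Figure D4:**
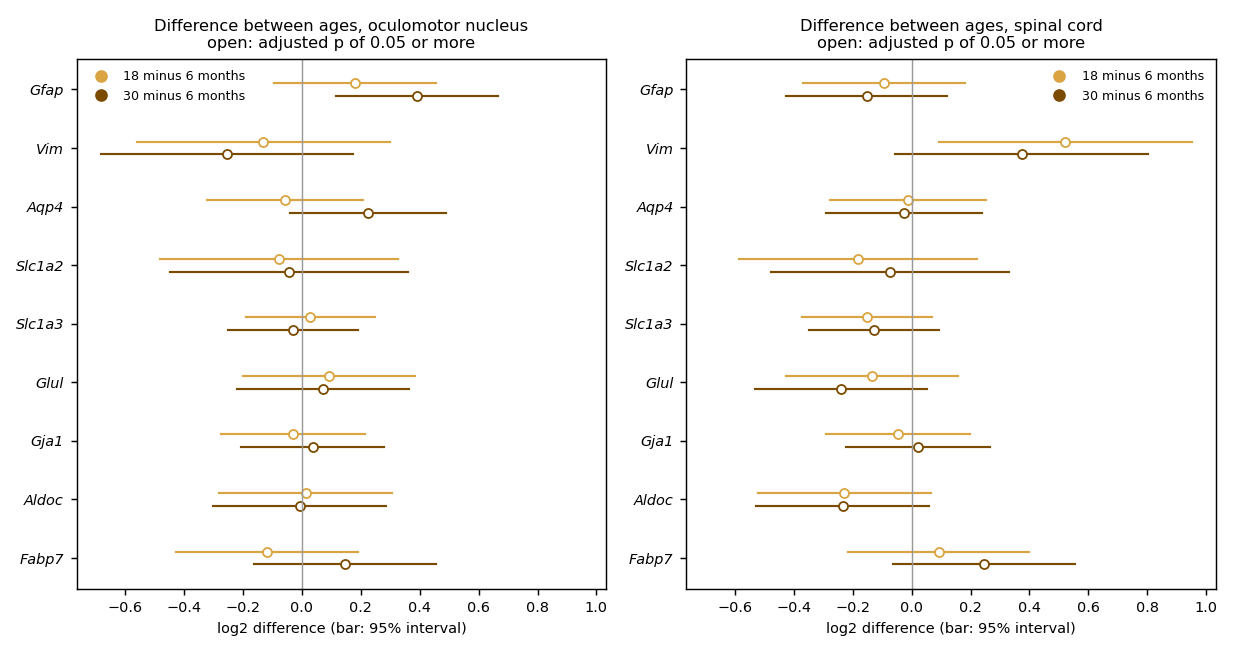
Log2 difference of 18 and 30 months from 6 months (horizontal axis) for the representing probe set of each astrocyte marker in the oculomotor nucleus (left) and the spinal cord (right); points are estimates of the limma model, bars their 95% intervals, and all points are open because no adjusted p was under 0.05. The intervals of Gfap at 30 months in the oculomotor nucleus (0.12 to 0.67) and of Vim at 18 months in the cord (0.09 to 0.95) leave out 0.

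Some arrays stood apart from their groups. The first principal component of the deviations from the group means held 27.1% of the variance, and replicate 3 of the oculomotor nucleus at 30 months and of the cord at 18 and 30 months, with replicate 1 of the cord at 6 months, lay together at its low end (-16.6, -13.8, -14.7 and -12.1). Gja1 (r = -0.86), Aqp4 (-0.85) and Glul (-0.83) followed that component most closely of the 9 genes, and Slc1a2 (0.19) and Slc1a3 (0.27) little, over 18 arrays. On those 4 arrays Gja1 (1372002_at) had 7117, 5837, 6246 and 5624, the highest of each group, and Aqp4 (1372190_at) was likewise the highest. The 3′ to 5′ signal ratio of the hexokinase control on them was 1.91, 1.97, 2.19 and 1.93, against 1.57 to 2.12 on the other 14 arrays, the highest of its group on the first 3 of them. The beta-actin ratio was the highest of its group on all 4, at 1.54 (1.31 and 1.35 on the other arrays of its group), 1.27 (1.15 and 1.13), 1.40 (1.28 and 1.16) and 1.26 (1.01 and 0.98). The GAPDH ratio on them was 1.09, 1.14, 1.08 and 1.19. It was the highest of its group for the oculomotor array and the cord array at 18 months, but not for the other cord arrays. Between the tissues the hexokinase ratio did not overlap at 6 months (1.57 to 1.64 against 1.93 to 2.12 in the cord). The GAPDH ratio did not at 18 months (1.01 to 1.02 against 1.06 to 1.14). Otherwise the control ratios of the tissues overlapped. The part of RNA quality in these results was not tested. Without the 4 arrays that stood apart the counts of members called were 5, 6 and 5 at 6, 18 and 30 months between the tissues. They were 0 in each comparison of ages. Over the alternative fits, this one among them, calls over all probe sets between the tissues ran from 1440 to 2985, 1971 to 3616 and 1521 to 2507.

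**Figure D5:**
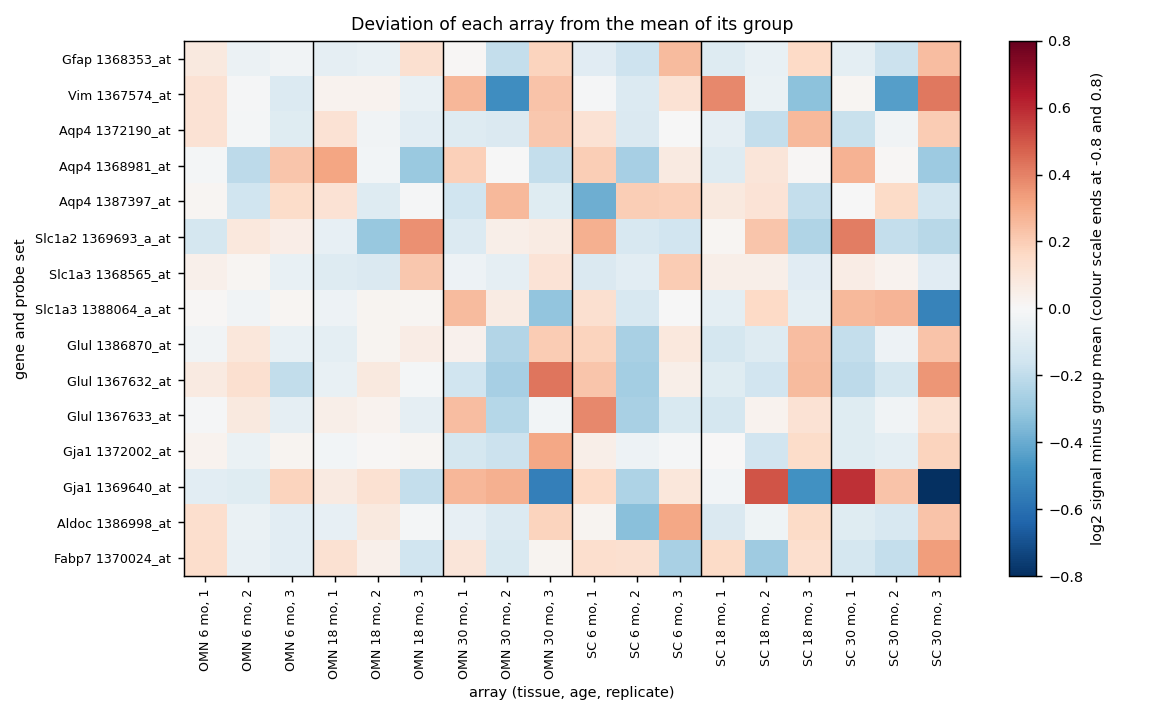
Deviation of each array from its group mean (colour, log2 signal) for the 15 tested probe sets of the astrocyte markers (rows) on the 18 arrays (columns), with black lines between groups. Probe set 1369640_at of Gja1 is low on replicate 3 of the oculomotor nucleus at 30 months and of the cord at 18 and 30 months, where 1372002_at of the same gene is high.

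Probe sets of 1 gene did not always vary together. For Gja1 1372002_at and 1369640_at correlated at r = -0.59 over the 18 arrays and -0.82 after subtraction of the group means, and for Aqp4 1372190_at and 1387397_at at -0.77 and -0.51. The Glul probe sets 1386870_at and 1367632_at gave 0.83 and 0.91. For Slc1a3 the called pair gave 0.94 over the arrays and 0.10 within groups. These correlations share arrays and are given as a description.

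Between genes, over the same arrays, Vim and Fabp7 correlated at 0.93, Gfap and Fabp7 at 0.90, and Gfap and Vim at 0.87, with the tissue difference included. Slc1a3 and Fabp7 correlated at -0.97. Once group means were subtracted, the closest pairs were other ones, Gfap with Aldoc (0.86), Aqp4 with Gja1 (0.82) and Glul with Aqp4 (0.77), while Gfap with Fabp7 fell to 0.15. Gja1, Aqp4 and Glul also followed the first component of the array deviations (r = -0.86, -0.85 and -0.83). The part of that component in the likenesses within groups, here and below, was not tested. Outside the list, of 6957 genes compared, Plaat3, Septin9 and Pip4k2a were most like Gfap (0.97, 0.96 and 0.96), Tspan8, Cnn3 and Anxa5 most like Vim (each 0.97), and Rapgef5, Anxa4 and Mtmr10 most like Fabp7 (0.98, 0.97 and 0.97). Th, tyrosine hydroxylase of dopamine neurons, was most like Slc1a3 (0.99), followed by Zcchc12 and Hap1. Aldoc was closest to Mbp (0.92), Snap25 (0.91) and S100b (0.88), and within groups to Mbp (0.94), Zwint (0.94) and S100b (0.93).

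For the other 4 genes the likenesses over the 18 arrays ran from 0.85 to 0.92. Lamp2, Cd99 and C11h21orf91 were nearest to Aqp4 (each 0.92), Ckb, Tmsb4x and Plekhb1 to Glul (0.89, 0.88 and 0.86), Hypk, Rnasek and Rpl3 to Gja1 (0.91, 0.86 and 0.85), and C7h8orf82, Plpp1 and Aars1 to Slc1a2 (0.87, 0.86 and 0.85). With group means subtracted the nearest genes were Uchl1, Rps6 and Rpl23 for Gfap (0.93, 0.92 and 0.91), Scd2, Slc6a6 and Rc3h2 for Aqp4 (0.96, 0.92 and 0.92), Lsamp, Hypk and Tmem47 for Gja1 (0.94, 0.93 and 0.92), and Ndufa13, Tmsb4x and Apod for Glul (0.94, 0.93 and 0.93). For Vim they were Cd63, Cd151 and Tspan9 (0.89, 0.87 and 0.85), for Slc1a3 Gng3, Xpo6 and Gak (0.85, 0.85 and 0.84), for Fabp7 Ciao2a, Cd302 and Rida (0.85, 0.84 and 0.83), and for Slc1a2 Bltp3a, Dnttip1 and Ppm1l (0.83, 0.83 and 0.79).

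Other genes of astrocytes and of the members' pathways were read from lists. Here and below, up to 4 called genes of a list, those with the smallest p, are named per comparison. An age not printed for a gene therefore does not mean that the tissues were alike at that age. Of 40 further astrocyte genes tested, 4 were higher and 8 lower in the oculomotor nucleus at 6 months, 3 and 9 at 18 months, then 4 and 8 at 30 months, beside the shares of all probe sets given above (12.7% higher and 13.4% lower at 6 months), with medians of -0.15, -0.09 and -0.14. Htra1, a secreted protease, was lower by 1.01, 0.97 and 0.85. Slc6a11, a GABA transporter, was higher by 1.69 at 18 months, and Agt, angiotensinogen, by 0.44 at 18 and 0.59 at 30 months. Plpp3, a lipid phosphatase, was higher by 0.57 at 6 months, when Slc6a9, a glycine transporter, was lower by 0.56 and Tril by 0.35. Gjb6, connexin 30, was lower by 0.67 at 30 months, and Id3 by 0.54 and 0.57 at 18 and 30 months. The count called at 18 months was 7 without cord replicate 2 of that age, and that at 6 months 6 with muscle transcripts as a covariate.

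Genes known to increase in reactive astrocytes were lower in the oculomotor nucleus for 10, 14 and 13 of 17 tested at 6, 18 and 30 months, and 1 was higher, with medians of -0.82, -1.17 and -0.98. Lgals1, galectin 1, was lower by 1.74 at 6 months and 1.71 at 30 months, Emp1 by 2.29 and 2.25, the copper oxidase Cp by 1.71 and 1.31 at 18 and 30 months, C3, a complement component, by 1.48 and 1.75 at 6 and 18 months, and the heat shock protein Hspb1 by 2.85 at 18 months. Amigo2 was higher by 1.80 at 18 and 1.89 at 30 months. With age C3 rose, by 1.09 between 6 and 30 months in the oculomotor nucleus (adjusted p = 0.000574). In the cord it rose by 0.93 at 18 and 0.77 at 30 months (adjusted p = 0.0026 and 0.0142). The oculomotor call held under all 31 alternative fits. Those in the cord held under 30 and 25 of them, with adjusted p up to 0.128 and 0.148. Psmb8, an immunoproteasome subunit, rose by 0.80 in the cord at 18 months (adjusted p = 0.0331). The call of Psmb8 held under 23 of 31 alternative fits and was lost without cord replicate 2 or 3 of 6 months (adjusted p = 0.0941 and 0.0991) or cord replicate 1 or 2 of 18 months (0.122 and 0.19). C3 and Psmb8 are also made by microglia and other immune cells, and no other gene of the list passed with age.

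Of 10 other intermediate filament genes tested, 7 were lower in the oculomotor nucleus at each age and 1 was higher at 18 and 30 months. Prph, peripherin of peripheral and motor neurons, was lower by 1.38, 1.30 and 1.25, the neurofilament Nefh by 0.65, 0.55 and 0.66, and Synm, synemin, which assembles with Gfap and Vim, by 0.76, 0.96 and 0.86. Nefl was lower by 0.57 at 6 months, Nefm by 0.67 at 18 months and Plec, the linker plectin, by 0.98 at 30 months. Of these 8 calls at each later age, 5 were left at 18 months without oculomotor replicate 1 of that age, and at 30 months 5 were left without oculomotor replicate 2 and 4 without cord replicate 3.

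In the glutamate list 6 of 16 genes were higher in the oculomotor nucleus and 1 lower at each age, with medians of 0.20, 0.19 and 0.14. Gad1, which makes GABA from glutamate, was higher by 1.21, 1.17 and 1.05, and Slc17a6, a vesicular glutamate transporter of neurons, by 0.60, 0.67 and 0.56. The mitochondrial glutamate carrier Slc25a22 was higher by 0.77 and 0.69 at 6 and 18 months, Slc17a7 by 2.97 at 6 months, the transaminase Got1 by 0.66 and 0.59 at 18 and 30 months, and the glutamine transporter Slc38a1 by 0.51 at 30 months. Gad1, Slc17a6 and Slc17a7 are neuronal.

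Of 17 genes for water, potassium and gap junctions, 1 was higher and 6, 7 and 6 were lower in the oculomotor nucleus across the 3 ages. Gjb2, connexin 26, was lower by 0.82, 0.89 and 0.91, the endfoot anchor Dag1 by 0.50, 0.40 and 0.41, the chloride cotransporter Slc12a2 by 0.60 and 0.38 at 6 and 18 months, and Tjp1, a tight junction protein, by 0.75 at 6 months. Car2, carbonic anhydrase, was higher by 0.60 and 0.76 at 18 and 30 months. Of the aldolase family and its neighbours in glycolysis 4, 5 and 5 of 7 were higher and none was lower, among them Gpi by 0.68, 0.57 and 0.62 and Pfkl by 0.75, 0.85 and 0.66. Hk1 was higher by 0.35 and 0.46 at 6 and 30 months, Tpi1 by 0.46 and 0.49 at 6 and 18 months, and Pfkm by 0.51 and 0.46 at 18 and 30 months. Fabp3, of the other fatty acid binding proteins, was higher by 0.79, 0.55 and 0.49, opposite in direction to Fabp7.

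Markers of other cell types differed between the tissues alongside the members. Of 13 genes of the meninges and fibroblasts, 12, 13 and 12 were lower in the oculomotor nucleus at 6, 18 and 30 months, Col3a1 by 2.05, 2.28 and 2.32, and the summed signal of the list lay between 3249 and 5462 there and between 9982 and 14615 in the cord. Vascular genes were lower for 9, 7 and 9 of 12 (summed signal 6093 to 7104 against 8558 to 10059), Tagln of smooth muscle by 1.70, 2.31 and 1.97. Microglia genes were lower for 12, 14 and 11 of 15 (9920 to 16686 against 14681 to 30168), Lgals3 by 1.63, 3.78 and 2.95. The sums take every gene of a list on the array, 14 meningeal, 14 vascular and 17 microglial, and so include some under the filter. Bright genes weigh most in them. With muscle transcripts as a covariate 4 microglia genes were called at 6 months. At 30 months 5 vascular genes were called without oculomotor replicate 2, and 7 microglia genes without the 4 arrays that stood apart. Myelin genes were lower for 6, 5 and 6 of 10, blood genes for 3, 3 and 2 of 3, and muscle genes for 5, 2 and 2 of 7. Pmp22, the Schwann cell gene that was tested, was lower by 1.67, 1.28 and 1.28, and of 4 choroid plexus and ependyma genes 1 was lower at each age and 1 higher at 6 months. Of 17 neuronal genes, 4, 6 and 4 were higher and 7, 6 and 6 lower. Their part in the lower Gfap, Vim and Fabp7 of the oculomotor nucleus was not tested.

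With age, too, some genes on the lists of other cell types were called. Of 15 microglia genes, 2 rose by 30 months in the oculomotor nucleus, and 6 by 18 months and 2 by 30 months in the cord, among them Fcer1g by 0.57 in the oculomotor nucleus at 30 months and Lgals3 by 2.13 in the cord at 18 months. The call of Fcer1g held under 9 of 31 alternative fits and that of Lgals3 under 30. The exception for Lgals3 was omission of the 3 muscle-rich cord arrays, which left only cord replicate 3 at 6 months. The count of 6 in the cord at 18 months was 3 and 2 without cord replicates 1 and 2 of that age. It was 4 without cord replicate 2 or 3 of 6 months, and 10 without cord replicate 3 of 30 months. Over the fits that leave out 1 array the counts at 30 months ran from 0 to 6 in the oculomotor nucleus and from 0 to 3 in the cord. In the oculomotor nucleus 3 of 13 meningeal genes fell by 30 months, Slc13a4 by 1.05, Igf2 by 1.13 and Col1a1 by 1.33, a count that ran from 0 (without oculomotor replicate 2 of 6 months; 1 without replicate 3 of 30 months) to 4 when 1 array was left out. Their part in the age values of Gfap and Vim was not tested. Skeletal muscle transcripts were uneven in the cord, with Acta1 from 253 to 3631 at 6 months and 296 to 344 at 30 months. With the muscle list as a covariate, Gfap, Vim, Fabp7 and Slc1a3 were still called at each age between the tissues.

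The labelled tissues were read against defining neuronal genes. Th lay between 1882 and 2893 in the oculomotor nucleus and between 55.4 and 138 in the cord, and Chat, the acetylcholine enzyme of motor neurons, between 96.8 and 191 and between 316 and 438. The dissection of the oculomotor nucleus thus carried high signal of a dopamine neuron gene and lower signal of a motor neuron gene than the cord.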

How the data were processed

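Per the labels and the series' design text, total RNA pooled from 4 rats per sample was hybridised to Affymetrix RA230 arrays, and the authors summarised the probes with Microarray Suite 5.0 (MAS5). The deposited table gives each array's intensity for each probe set, linear and with no detection calls. The 2% trimmed mean was 500.083 to 500.101 on every array and the median 252 to 275, so values are scaled and not centred. The design text speaks of 4 replicates per group and the labels give 3, which were used.

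A floor of 66.4, the pooled 20th percentile, was set under the signals before log2. Of 15923 probe sets, 57 controls were left out and 9482 with a mean log2 above the 40th percentile, 7.459, were kept. On the array 12789 probe sets name 1 gene, 312 several, and 2822 are unnamed here; names follow Entrez identifiers for 12754 and the platform annotation for 35. Group means were estimated over the 18 arrays by limma 3.58.1 (R 4.3.3; empirical Bayes with a mean-variance trend, 12 residual degrees of freedom, 18.8 with the prior), and 11 two-sided contrasts were tested with Benjamini-Hochberg adjustment over all probe sets kept. The steps were tested on simulated data. The number of arrays limits the precision.

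The 17 gene lists, that of the members among them, were chosen with earlier results of these data known. All 9 members are named; of each other list up to 4 called genes with the smallest p per comparison; and per member the 3 genes of highest correlation. Deviations of same-numbered arrays correlated between -0.26 and 0.50, with all 3 pairs over 0.1 only for the tissues at 30 months. Replicate 3 of the cord also correlated at 0.45 between 18 and 30 months. Whether same-numbered samples came from the same animals is not stated, and these correlations cannot settle it. No block was used in the main fit.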

Additional observations from a re-analysis of the deposited data

How the results depend on the processing

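Results were recomputed under 33 settings. Settings of the values were quantile normalization, median centring, no floor, a pseudocount of 64 and no filter. Settings of the fit were separate fits of the tissues, no variance trend, array weights, a replicate block and a block for the 4 arrays that stand apart. Muscle transcripts were used as a covariate, and the 3 cord arrays richest in them were omitted. This omission left only cord replicate 3 at 6 months. Further settings were the mean over a gene's probe sets, a size rule after the authors' and each array left out. That rule asked for group means over 1.7-fold apart and for arrays that did not overlap. Omission of the 4 arrays that stand apart was chosen after seeing the data. No called value changed sign. Of 3257 pairs of member values called neither in the reported fit nor in the alternative, 182 differed in sign. The count of members called between the tissues ranged from 4 to 7 (6 months), 4 to 6 (18 months) and 3 to 5 (30 months). Calls over all probe sets ran from 1440 to 2985, 1971 to 3616 and 1521 to 2507 at these ages. Between 30 and 6 months in the oculomotor nucleus the count of members was 1 with quantile normalization (Gfap) and 0 otherwise. In each other comparison of ages or of change it stayed 0. With the replicate block the members called were 6, 5 and 4 between the tissues, Slc1a2 at 6 months was no longer called (adjusted p = 0.0508 by limma) and Glul was (0.034). At 30 months, where same-numbered arrays of the tissues deviated together, the block changed no call of a member. Among single member values 38 lost and 31 gained a call, none of them for Vim, Fabp7 or Slc1a3. Over all probe sets the calls between 30 and 6 months ran from 4 to 69 in the oculomotor nucleus and from 0 to 72 in the cord. Those between 18 and 6 months in the cord ran from 15 to 100 with 1 array left out. They reached 127 with a block for the 4 arrays that stand apart. Signals of Slc1a2 lay near the filter.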
